A study of Homo sapiens with 15 samples.

Results

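BT474 is an established human breast cancer cell line with amplified HER2, and trastuzumab emtansine (T-DM1) is an antibody against HER2 that delivers a microtubule poison into the cell. The contrast described here set the 6 arrays titled as resistant clones C#1 and C#2 against the 3 arrays titled as resistant clone C#3, so it used 9 of the 15 arrays of the series and no array of the parental line. The arrays were assigned by their titles, and the comparison was chosen with earlier results of these data known. All 3 clones were grown out of single BT474 cells after prolonged T-DM1 exposure and were then kept for 3 months in medium with 5 nM T-DM1, the same for every clone. The remaining arrays are 3 from parental BT474, for which no drug culture is described, and 3 from a further resistant clone, C#6. Whether the drug was present when RNA was taken is not stated in the sources used here. Each clone is a single line, and its 3 arrays, labelled as biological replicates, replicate that line. The p-values therefore measure the spread between arrays of these 3 clones and not the spread between resistant clones in general.

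Cells that escape a HER2-directed drug conjugate have in common that they survive the conjugate, but each clone carries its own history of mutation, chromosome gain and loss and gene regulation. The conjugate must bind HER2, be taken up, be broken down in the lysosome and release its poison, which stops cells in mitosis. Luminal breast cells are defined by transcription factors such as GATA3, FOXA1 and the oestrogen receptor ESR1. A comparison among resistant clones addresses which features differ between lines that passed the same selection.

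Total RNA was measured as log2 RMA values of Affymetrix gene arrays, with 1 probe set per gene symbol and 12147 genes above the filter on dim probe sets. Each of the 9 arrays had its upper quartile at 5.86 to 5.89 on this scale. Correlations across genes, which are not independent replicates, were 0.986 to 0.990 within a clone and 0.985 to 0.991 between clones 1 and 2. They were 0.979 to 0.985 between these and clone 3. All 10 luminal breast markers with a probe set passed the filter, and their summed level was 88.1 to 91.0 in clones 1 and 2 and 90.7 to 91.2 in clone 3. Of the listed markers of basal breast cells, fibroblasts, leukocytes and endothelium, 3 of 7, 3 of 8, 4 of 8 and 4 of 6 had a probe set. Of these, 1, 1, 3 and 2 passed the filter and were tested, and none was called. Medians of the markers with a probe set ran from 2.76 to 5.01 (THY1), from below to above the 40th percentile of an array (3.59 to 3.62).

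Clones 1 and 2 differed from clone 3 in a large share of genes. A gene is called here at a Benjamini-Hochberg adjusted p below 0.05 in limma, and a positive difference means a higher level in clones 1 and 2. Of 12147 genes, 2553 (21.0%) were called, 1167 (9.61%) of them higher and 1386 (11.4%) lower in clones 1 and 2. Most of these differences were small, with a median size of 0.47 on the log2 scale (1.38-fold). At least 2-fold apart were 159 genes (1.31%), 99 higher and 60 lower. In 2094 genes (17.2%) all 6 arrays of clones 1 and 2 lay on the called side of all 3 arrays of clone 3. The median difference over all genes was -0.02.

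Taken singly, clone 1 against clone 3 gave 2041 calls (16.8%) and clone 2 against clone 3 gave 1914 (15.8%). These comparisons share the clone 3 arrays. Between clones 1 and 2, limma called 0 of 12147 genes (0.0%), with 807 at an unadjusted p under 0.05. The largest difference between them was 1.09 in size. Other settings of the fit called between 0 and 6 genes there.

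Against the parental line, clones 1 and 2 together had 2674 calls (22.0%) and clone 3 had 2090 (17.2%). Parental levels are given beside single genes, and the comparisons share the parental arrays.

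The largest difference among the 12147 genes was in CEACAM5, the carcinoembryonic antigen, an adhesion glycoprotein of the epithelial cell surface. Its level was 11.34, 11.44 and 11.53 in the arrays of clone 1, 11.34, 11.11 and 11.04 in clone 2 and 7.44, 7.19 and 6.77 in clone 3. The groups were far apart, and the parental line lay between them at 8.44 ± 0.22 (SD, n = 3). The difference was 4.17 (SE 0.13, adjusted p = 3.98e-12), or 18.0-fold. The neighbouring family members went in both directions. CEACAM6 was higher by 1.16 (SE 0.28, adjusted p = 0.00655), with arrays of clone 2 from 5.99 to 7.46 overlapping those of clone 3 from 5.72 to 6.49. That call was lost in clone 2 alone against clone 3. CEACAM7 was lower by -1.12 (SE 0.30, adjusted p = 0.0141), and the call was lost without clone 3 replicate 2 (-0.96) or replicate 3 (-1.03). These paralogs are alike in sequence, and probes could be shared between them.

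FAR2, which reduces fatty acyl-CoA to fatty alcohol, had the next largest positive difference. It was at 7.42, 7.66 and 7.59 in clone 1, at 7.38, 7.57 and 7.31 in clone 2 and at 4.87, 4.44 and 4.44 in clone 3. Clones 1 and 2 were at the level of the parental line (7.48 ± 0.12), and clone 6, at 3.94, 3.95 and 4.11, was below clone 3. The difference was 2.90 (SE 0.11, adjusted p = 4.94e-11), or 7.49-fold. TMTC1, a mannosyltransferase of the endoplasmic reticulum, lies 2 tested genes further along chromosome 12 and was higher by 2.17 (SE 0.13, adjusted p = 2.33e-08). Its level in clone 6 (4.68 ± 0.27) was also near that of clone 3 (4.38 ± 0.33). ERGIC2, between them, differed by -0.01 (adjusted p = 0.965). ERGIC2 and the other flanking genes given below were looked up after the values of the named genes were seen.

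NTSR1, the receptor for the peptide neurotensin, was at 8.46, 8.68 and 8.43 in clone 1, 8.84, 8.42 and 8.20 in clone 2 and 5.70, 5.92 and 5.28 in clone 3. Here clones 1 and 2 were above the parental line (6.38 ± 0.21) and clone 3 below it. The difference was 2.87 (SE 0.15, adjusted p = 2.92e-09), or 7.32-fold. RASSF2, a Ras-binding protein with a role in cell death, was at 8.58 to 9.34 in the 6 arrays of clones 1 and 2 (median 9.12) and at 6.66, 6.61 and 6.63 in clone 3. The difference was 2.40 (SE 0.13, adjusted p = 5.81e-09), and the parental arrays at 8.27, 8.06 and 7.67 again lay between the groups. SGPP2, a phosphatase of sphingosine 1-phosphate, was higher by 2.19 (SE 0.16, adjusted p = 1.65e-07). POGLUT3, an O-glucosyltransferase of the endoplasmic reticulum, was higher by 2.18 (SE 0.11, adjusted p = 1.79e-09), with its 3 clone 3 arrays at 4.46, 4.41 and 4.43 against 6.87 ± 0.10 in the parental line.

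PMAIP1, which encodes the BH3-only protein NOXA, a trigger of mitochondrial cell death, was at 7.31, 6.95 and 6.90 in clone 1 and at 7.66, 7.01 and 7.26 in clone 2. In clone 3 it was at 4.99, 4.99 and 5.32, below every other array, and the parental level was 6.50 ± 0.19. The difference was 2.08 (SE 0.16, adjusted p = 4.36e-07), or 4.23-fold. BCL11A, a zinc-finger repressor of transcription, was higher by 2.07 (SE 0.17, adjusted p = 6.52e-07), with clone 3 arrays at 5.02, 5.05 and 5.06. CYSLTR1, a leukotriene receptor, was higher by 2.03 (SE 0.20, adjusted p = 3.81e-06). Its clone 3 arrays at 3.25, 2.93 and 2.90 lay below the 40th percentile of an array, so the probe set was dim in that clone.

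CD68, a glycoprotein of late endosomes and lysosomes that is often used to mark macrophages, was higher by 1.93 (SE 0.28, adjusted p = 0.000104). Its arrays ran from 7.17 to 8.73 in clones 1 and 2 and from 5.95 to 6.18 in clone 3. The summed level of the leukocyte markers overlapped between the groups, at 14.5 to 15.5 in clones 1 and 2 and 14.5 to 15.3 in clone 3. Of the 4 nearest tested genes on chromosome 17, ZBTB4, MPDU1 and SOX15 were called the other way (-0.68, -0.73 and -0.42), and SENP3-EIF4A1 was not called (-0.15, adjusted p = 0.269). ASS1, argininosuccinate synthase, needed to make arginine, was at 9.43 to 10.35 in clones 1 and 2 and at 8.84, 7.52 and 7.84 in clone 3. The groups did not overlap, and the difference was 1.81 (SE 0.27, adjusted p = 0.000149). For both CD68 and ASS1, replicate 1 was the highest array in every clone and in the parental line. TNS4, a tensin of focal adhesions, was higher by 1.73 (SE 0.22, adjusted p = 4.36e-05). TCEAL8, of the elongation factor-like family on the X chromosome, was higher by 2.52 (SE 0.12, adjusted p = 1.61e-09).

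**Figure D1:**
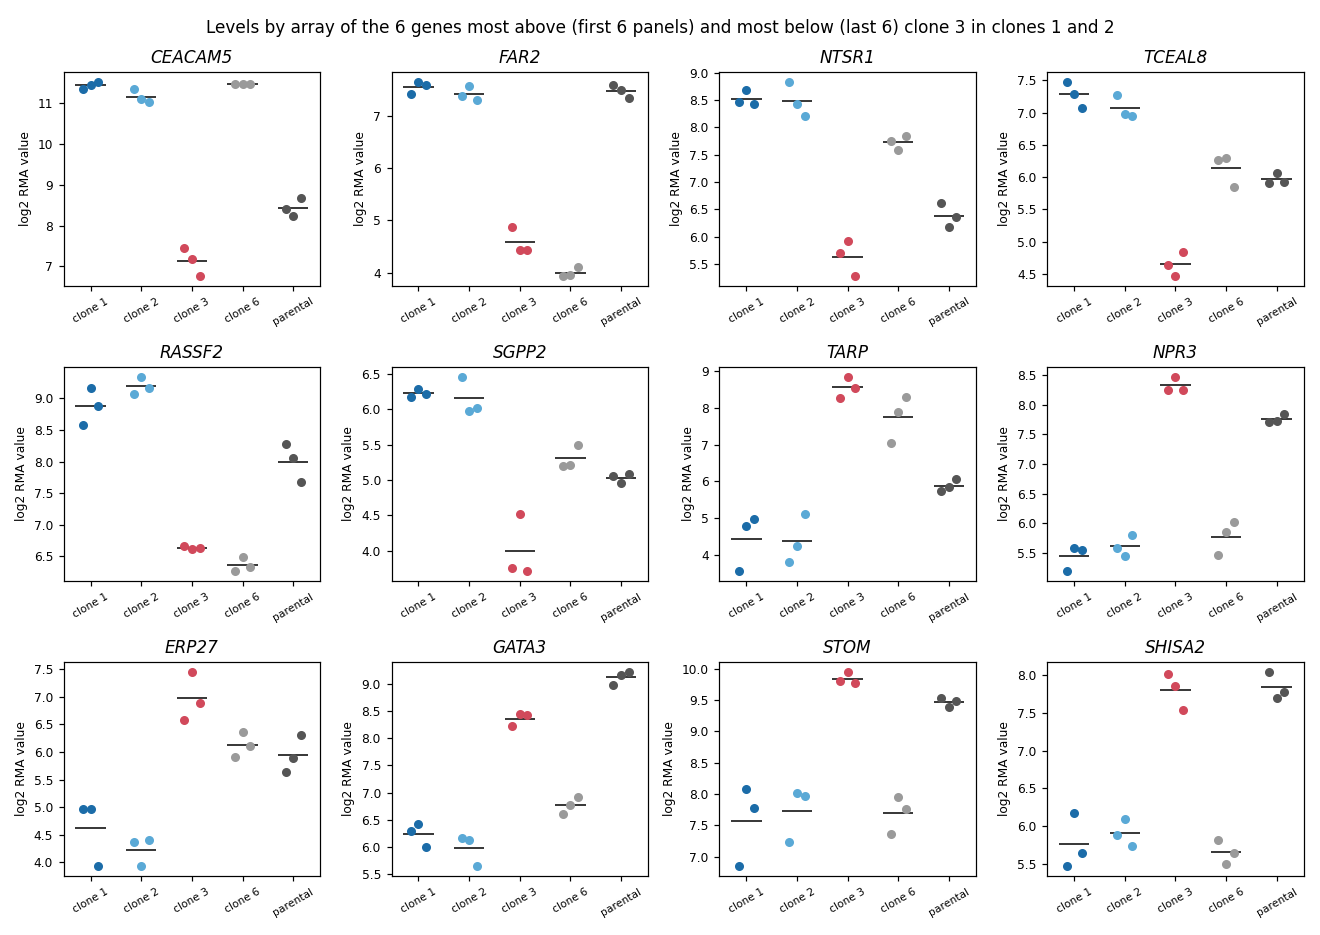
Level of each of 12 genes by array, in log2 RMA values on an axis of its own for each gene, in clones 1, 2, 3 and 6 and the parental line. Points are arrays and lines are group means of 3 arrays; in all 12 panels the 6 points of clones 1 and 2 lie on one side of the 3 points of clone 3, as in CEACAM5 with 11.04 to 11.53 against 6.77 to 7.44.

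Among genes lower in clones 1 and 2, TARP stood first. It encodes a protein read from the T cell receptor gamma locus and is known from breast and prostate cancer cells. Its level was 3.57, 4.80 and 4.98 in clone 1, 3.82, 4.26 and 5.11 in clone 2 and 8.27, 8.84 and 8.54 in clone 3. The parental line was between the groups at 5.88 ± 0.16. The difference was -4.13 (SE 0.32, adjusted p = 3.27e-07). The antisense transcript of the same locus, TRG-AS1, differed by 0.04 (adjusted p = 0.855). Whether these probes separate overlapping transcripts was not tested.

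NPR3, the clearance receptor of the natriuretic peptides, was at 5.20, 5.58 and 5.56 in clone 1, 5.59, 5.45 and 5.80 in clone 2 and 8.25, 8.47 and 8.25 in clone 3. Clones 1 and 2 were far below the parental level of 7.76 ± 0.08 and clone 3 above it, a difference of -2.79 (SE 0.12, adjusted p = 4.96e-10). ERP27, a protein of the endoplasmic reticulum, was lower by -2.54 (SE 0.23, adjusted p = 1.37e-06). Of the 4 nearest tested genes on chromosome 12, MGP (-1.15), ARHGDIB (-0.53) and EPS8 (-0.45) were also called lower, and ART4 was not called (0.16, adjusted p = 0.41). STOM, the membrane protein stomatin, was lower by -2.19 (SE 0.22, adjusted p = 3.71e-06), next to GSN, gelsolin, at -0.70. VTCN1, the B7 family member B7-H4 that restrains T cells, was lower by -1.75 (SE 0.13, adjusted p = 3.27e-07).

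SHISA2, DPYSL5, NCAM2 and ANXA9 were lower in clones 1 and 2 by -1.96, -1.94, -1.68 and -1.59, with adjusted p from 3.27e-07 to 5.18e-05. In clone 3 the mean levels of SHISA2 (7.79 ± 0.25), DPYSL5 (7.84 ± 0.33) and ANXA9 (7.60 ± 0.21) were close to the parental means of 7.83 ± 0.18, 7.83 ± 0.09 and 7.50 ± 0.06. NCAM2, a neural cell adhesion molecule, was at 6.15 ± 0.32 in clone 3, between 4.47 ± 0.23 in clones 1 and 2 (n = 6) and 7.08 ± 0.32 in the parental line. CST4, the secreted protease inhibitor cystatin S, was lower by -1.55 (SE 0.13, adjusted p = 6.18e-07), whereas the adjacent CST3, cystatin C, was higher by 1.06 (adjusted p = 1.21e-06). ZNF415, a zinc-finger gene, was lower by -1.60 (SE 0.13, adjusted p = 6.52e-07), and of the long non-coding RNAs LINC01963 was lower by -1.70 (SE 0.21, adjusted p = 2.51e-05).

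On chromosome 21 tested genes next to each other went in opposite directions. B3GALT5-AS1, an antisense RNA, was at 5.17 to 6.06 in clones 1 and 2 and at 3.65, 3.45 and 3.66 in clone 3, a difference of 1.91 (SE 0.14, adjusted p = 3.19e-07). Its clone 3 arrays lay around the 40th percentile of an array (3.59 to 3.62), so the probe set was dim in that clone. DSCAM-AS1, a long non-coding RNA known from luminal breast cancer, is the next tested gene and was lower by -1.50 (SE 0.19, adjusted p = 2.92e-05). BACE2 followed at 0.39 (adjusted p = 0.0197) and MX2, an interferon-induced GTPase, at -1.67 (SE 0.17, adjusted p = 5.49e-06). Whether the probes of these antisense RNAs also take up signal from the sense transcripts was not tested.

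GATA3 led the genes of luminal identity. It was at 6.29, 6.42 and 6.00 in clone 1, 6.16, 6.13 and 5.65 in clone 2 and 8.22, 8.44 and 8.42 in clone 3, a difference of -2.25 (SE 0.13, adjusted p = 5.87e-09), or 4.76-fold. The parental line was above all of them at 9.12 ± 0.13. GATA3-AS1, beside it, differed by 0.05 (adjusted p = 0.769). AGR2, a secretory-pathway protein made by luminal cells, was lower by -1.15 (SE 0.12, adjusted p = 5.04e-06), with clone 3 at 7.50, 7.52 and 7.47 and the parental line at 7.55 ± 0.08. CA12, a carbonic anhydrase, was lower by -0.46 and PRLR, the prolactin receptor, by -0.33. NAT1, an acetyltransferase, TFF1, a secreted trefoil peptide, and XBP1, a factor of the secretory pathway, were higher by 0.58, 0.34 and 0.36. The call of XBP1 was lost without clone 3 replicate 3 (0.27).

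In all, 3 of 26 tested oestrogen receptor and luminal genes were higher and 4 lower (26.9% called, against 21.0% over all genes). The list's median difference of 0.02 was near that of all genes. The count of higher members fell to 1 without clone 3 replicate 3. ESR1, the oestrogen receptor, was not called (-0.30, SE 0.12, adjusted p = 0.0979), with clone arrays from 7.31 to 7.92 in clones 1 and 2 overlapping 7.78 to 7.99 in clone 3. PGR, the progesterone receptor, was not called either (0.31, SE 0.24, adjusted p = 0.44). Its clone 3 replicate 1, at 8.44, stood above replicates 2 and 3 at 7.40 and 7.28, and without it PGR was called at 0.67.

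The genes of mitosis and the spindle checkpoint had the highest median difference of the 27 lists, 0.24 against -0.02 over all genes. Of 54 tested members, 17 (31.5%) were called higher in clones 1 and 2 and 0 lower. This stands against 9.61% called higher over all genes. The mean level over the list was 7.95 to 8.33 in the 6 arrays of clones 1 and 2, 7.76 to 7.88 in clone 3 and 8.12 to 8.21 in the parental line. Clone 3 thus lay below clones 1 and 2 without overlap. Clone 6, which is outside the contrast, was lower still in part, at 7.53 to 7.78. With clone 3 replicate 3 left out, the count of higher members was 10. Where cells were in the cycle was not measured.

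The members that stood out most were NUSAP1, CCNB2 and BUB1B. NUSAP1, which binds and bundles spindle microtubules, was at 8.70 to 9.22 in clones 1 and 2 (median 8.80) and at 7.92, 7.93 and 7.80 in clone 3. The difference was 1.01 (SE 0.11, adjusted p = 1.3e-05), and the groups did not overlap. CCNB2, cyclin B2, was at 8.24 to 8.64 in clones 1 and 2 and at 7.62, 7.43 and 7.51 in clone 3, a difference of 1.01 (SE 0.10, adjusted p = 2.32e-06). BUB1B, the checkpoint kinase BUBR1, was higher by 0.79 (SE 0.11, adjusted p = 9.81e-05).

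All of these lie on chromosome 15, most of whose called genes were higher (below). With the 5 tested members on chromosome 15 left out, an alternative added after the values were seen, 13 of 49 mitosis genes (26.5%) were still higher and 0 lower, with a median of 0.22. Among them were KIF18A, a kinesin that steadies chromosomes on the spindle (0.62, SE 0.15), CDC25B, a phosphatase that starts mitosis (0.58), CENPA, the centromere histone (0.57), and CCNA2, cyclin A2 (0.54). CCNB1, cyclin B1, was higher by 0.42 (SE 0.09, adjusted p = 0.00248), with 8.04 to 8.30 against 7.88, 7.81 and 7.60. PLK1, a kinase of mitotic entry and exit, was higher by 0.41 (SE 0.12, adjusted p = 0.018). The calls of PLK1 and KIF18A were lost without clone 3 replicate 3 (0.32 and 0.49). CDC20, the activator of the anaphase-promoting complex, was not called (0.09, adjusted p = 0.691).

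**Figure D2:**
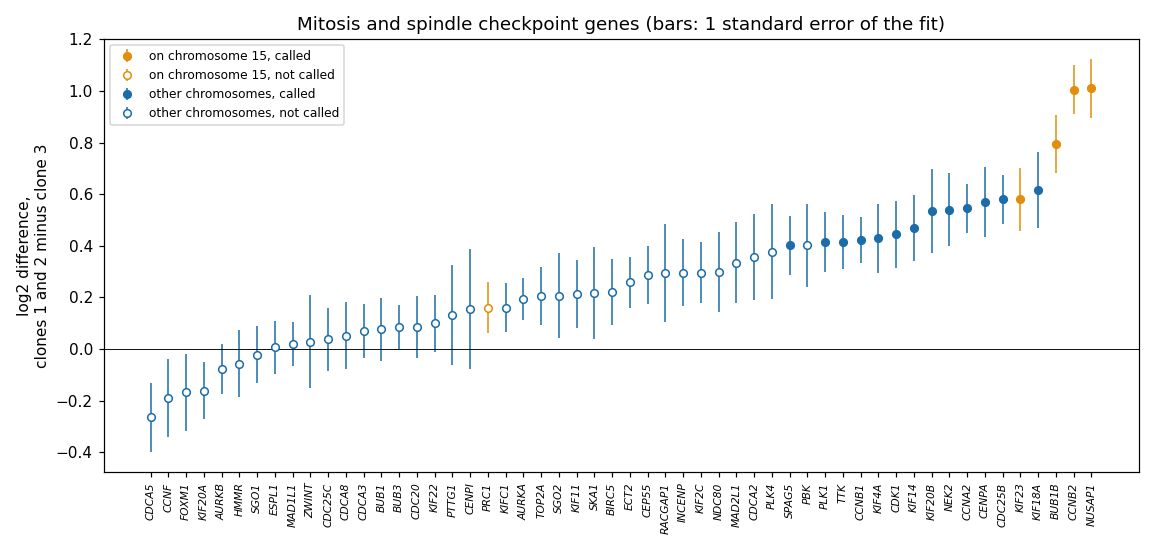
Difference of clones 1 and 2 from clone 3 (log2) for the 54 tested mitosis and spindle checkpoint genes in rising order, with 1 standard error of the limma fit as bars. Filled points are called and open points are not; orange marks chromosome 15, and the highest members are NUSAP1 and CCNB2 at 1.01.

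The promoters of these genes are shown because many mitotic genes are known to be switched by a pair of short elements near the start site. These are the cell cycle homology region (CHR, searched as TTTGAA) and the CCAAT box (searched as CCAAT), both on either strand. The windows are 300 bases around each RefSeq start in GRCh38.p14, most of them before it, read 5′ to 3′ along the gene. Capitals mark the matches to either motif.
CCNB2, chr15:59104896-59105195, strand +: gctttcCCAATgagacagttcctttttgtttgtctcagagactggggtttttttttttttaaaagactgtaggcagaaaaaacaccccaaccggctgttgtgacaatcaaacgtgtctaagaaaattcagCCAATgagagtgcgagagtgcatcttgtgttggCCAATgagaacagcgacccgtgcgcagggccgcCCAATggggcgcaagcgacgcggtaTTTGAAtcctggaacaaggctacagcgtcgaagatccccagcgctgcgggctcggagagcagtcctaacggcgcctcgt
NUSAP1, chr15:41332631-41332930, strand +: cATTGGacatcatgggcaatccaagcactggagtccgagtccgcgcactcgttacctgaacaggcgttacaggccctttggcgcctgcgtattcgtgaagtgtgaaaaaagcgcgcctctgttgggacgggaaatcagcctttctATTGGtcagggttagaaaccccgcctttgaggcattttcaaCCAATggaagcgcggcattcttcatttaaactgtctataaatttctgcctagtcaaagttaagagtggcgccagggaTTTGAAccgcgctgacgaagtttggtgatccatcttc
PLK1, chr16:23678639-23678938, strand +: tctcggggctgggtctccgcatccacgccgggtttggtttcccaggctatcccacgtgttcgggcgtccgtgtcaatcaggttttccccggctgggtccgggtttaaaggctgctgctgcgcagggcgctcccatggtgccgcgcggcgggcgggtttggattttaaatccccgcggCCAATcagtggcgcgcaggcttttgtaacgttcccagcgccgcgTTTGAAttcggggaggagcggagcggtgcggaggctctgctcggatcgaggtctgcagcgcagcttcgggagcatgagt
KIF18A, chr11:28108107-28108406, strand -: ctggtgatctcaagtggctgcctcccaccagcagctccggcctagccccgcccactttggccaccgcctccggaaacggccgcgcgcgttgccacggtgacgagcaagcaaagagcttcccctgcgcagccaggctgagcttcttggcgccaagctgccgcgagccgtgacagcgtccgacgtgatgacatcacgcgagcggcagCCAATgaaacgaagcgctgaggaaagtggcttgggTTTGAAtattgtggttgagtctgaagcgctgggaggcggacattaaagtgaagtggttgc

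Of the list, 46 genes matched 61 promoters, and 35 of these (57.4%) held the CHR letters and 45 (73.8%) the CCAAT letters. Over all 35116 promoters of the same length the shares were 15.2% and 34.6%. CCNB2 holds 4 CCAAT matches ahead of its CHR match, and PLK1 and KIF18A hold 1 of each. A match is a stretch of letters and not a site shown to be bound. The CHR letters were in 31 of the 46 genes and in 12 of the 16 called ones, so they mark the list and not its called members.

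Genes of DNA replication and S phase were called in both directions. Of 28 tested, 2 were higher and 4 lower (21.4% called, near the 21.0% over all genes), and the median was -0.17. GINS2, a subunit of the replicative helicase complex, was lower by -1.13 (SE 0.22, adjusted p = 0.00124), with 5.59 to 6.44 in clones 1 and 2 against 6.87 to 7.40 in clone 3. CCNE1, cyclin E1, was lower by -0.69 (SE 0.13, adjusted p = 0.0013). TIPIN, a replication fork protein encoded on chromosome 15, was higher by 0.95 (SE 0.23, adjusted p = 0.00704). DTL was lower by -0.78, but its arrays overlapped, and the call was lost without any of clone 1 replicate 1, clone 2 replicate 1 or 2 or clone 3 replicate 2 or 3 (-0.83 to -0.61). The list's mean level varied widely between arrays of the same clone, from 7.85 to 8.58 in clones 1 and 2 and from 8.25 to 8.61 in clone 3. In the fit without clone 3 replicate 3, the count of lower members was 2.

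Of 20 tested genes of cholesterol synthesis and uptake, 6 were lower in clones 1 and 2 and 0 higher, with the lowest median of the 27 lists (-0.23). Over all genes 11.4% were called lower. MVD, which makes isopentenyl diphosphate, was at 7.96 to 8.36 in clones 1 and 2 and at 9.28, 8.84 and 9.27 in clone 3, a difference of -0.96 (SE 0.12, adjusted p = 3.51e-05). The parental level of 8.22 ± 0.12 was near that of clones 1 and 2, and clone 6 at 8.92 ± 0.16 was near clone 3. DHCR7, of the last step to cholesterol, was lower by -0.78 (SE 0.09, adjusted p = 2.01e-05). HMGCS1, early in the pathway, was lower by -0.76 (SE 0.14, adjusted p = 0.000745), and MVK, mevalonate kinase, by -0.75 (SE 0.09, adjusted p = 2.58e-05). The other called members were EBP (-0.37) and PMVK (-0.34). SREBF2, the factor that switches the pathway on, was not called (0.25, SE 0.10, adjusted p = 0.0993), and it was called at 0.30 without clone 1 replicate 3. Without that array, 1 cholesterol gene was higher.

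In fatty acid synthesis and activation, 8 of 21 genes were higher and 1 lower (42.9% called, against 21.0% over all genes), with a median of 0.16. FAR2, described above, led them. ELOVL6, an enzyme that lengthens fatty acids, was at 6.72 to 7.21 in clones 1 and 2 and at 6.13, 5.78 and 5.82 in clone 3, a difference of 1.04 (SE 0.10, adjusted p = 1.73e-06). The parental level was 6.80 ± 0.10. ELOVL7, of the same family, was higher by 0.85 (SE 0.11, adjusted p = 5.89e-05). ACSS2, which makes acetyl-CoA from acetate, was the lower member at -0.99 (SE 0.12, adjusted p = 1.74e-05), with 8.26 to 8.62 against 9.76, 9.26 and 9.49. ACACB, FADS1, ELOVL5, HSD17B12 and FAR1 were higher by 0.32 to 0.47. Without clone 3 replicate 3 the count of higher members was 5.

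Listed genes of MAPK and PI3K signalling and its feedback were higher in clones 1 and 2 where they were called. The activity of these pathways was not measured. Of 30 tested, 8 (26.7%) were higher and 0 lower, with a median of 0.18, and over all genes 9.61% were called higher. Not called were, among others, DUSP6 (0.79, adjusted p = 0.151), SPRY4 (0.41, adjusted p = 0.53) and ETV5 (0.36, adjusted p = 0.227). Neither were EGR1 (0.02, adjusted p = 0.985) and FOSL1 (0.03, adjusted p = 0.947). In clone 2 alone against clone 3 the count was 5. SPRY2, which dampens receptor tyrosine kinase signalling, was at 5.50 to 5.94 in clones 1 and 2 and at 4.51, 4.82 and 4.70 in clone 3, a difference of 1.07 (SE 0.11, adjusted p = 2.88e-06). The parental level was 5.49 ± 0.04, above clone 3. DUSP4, a phosphatase of the MAP kinases, was higher by 0.62 (SE 0.11, adjusted p = 0.000627), and so was IER3 (0.62, SE 0.13, adjusted p = 0.00257). For both, clone 3 (8.86 ± 0.08 and 8.89 ± 0.18) was near the parental line (8.87 ± 0.13 and 8.92 ± 0.25). ETV4, an ETS factor, was higher by 0.69 (SE 0.19, adjusted p = 0.0144), and the call was lost without clone 3 replicate 1 (0.51). IRS2 and INSR, of the insulin receptor pathway, were both higher by 0.46, TRIB1 by 0.47 and PIK3IP1 by 0.33.

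ERBB2, which encodes HER2 itself, was not analysed here because its probe set has no symbol in the tables used. Genes around it on chromosome 17, which are commonly amplified with it, were measured. Of 25 tested, 8 (32.0%) were higher in clones 1 and 2 and 0 lower, with a median of 0.11. Over all genes 9.61% were called higher. GRB7, an adaptor that binds HER2, was at 10.40, 10.24 and 10.28 in clone 1, 10.43, 10.07 and 9.96 in clone 2 and 9.73, 9.47 and 9.29 in clone 3. The groups did not overlap, the parental level was 10.36 ± 0.07, and the difference was 0.73 (SE 0.11, adjusted p = 0.000174). GSDMB, a pore-forming gasdermin, was higher by 1.04 (SE 0.25, adjusted p = 0.00594), PNMT by 0.59 and SRCIN1 by 0.48. STARD3, a cholesterol-binding endosomal protein, and MIEN1, both close to ERBB2, were higher by 0.35 and 0.26. Other listed neighbours were not called, among them PGAP3 (0.01, adjusted p = 0.981), CDK12 (0.03, adjusted p = 0.868) and IKZF3 (-0.36, adjusted p = 0.0982). TNS4, among the largest differences, also lies on chromosome 17, and its next tested gene CCR7 differed by 0.03 (adjusted p = 0.911). With array weights 1 of the 25 genes was lower.

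Of the HER family receptors and ligands, 1 of 15 was higher and 1 lower (13.3% called, against 21.0% over all genes). ERBB4, the receptor HER4, was at 4.36 to 4.84 in clones 1 and 2 and at 5.54, 5.54 and 5.36 in clone 3, a difference of -1.0 (SE 0.12, adjusted p = 2.36e-05). The parental level was 5.16 ± 0.07. EGF was higher by 0.39 at the edge of the threshold. Its call was lost without clone 1 replicate 1 or 2, clone 2 replicate 1 or 2 or any array of clone 3 (0.31 to 0.45).

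Lysosomal proteases and membrane proteins, through which the conjugate is broken down, went both ways. Of 26 tested, 8 were higher and 3 lower (42.3% called, against 21.0% over all genes), with a median of 0.06. Without clone 3 replicate 1 the higher count was 5. CTSZ, cathepsin Z, was at 6.56 to 6.82 in clones 1 and 2 and at 5.76, 5.80 and 6.06 in clone 3, a difference of 0.79 (SE 0.09, adjusted p = 9.09e-06). CTSH, cathepsin H, encoded on chromosome 15, was higher by 0.70 (SE 0.12, adjusted p = 0.000594). LAMP2, a membrane protein of the lysosome, was higher by 0.60 (SE 0.08, adjusted p = 5.42e-05). CTSB, CTSL, CTSD and CTSC were higher by 0.43, 0.35, 0.32 and 0.29, and CTSF, CTSA and TPP1 lower by -0.50, -0.34 and -0.27. The call of CTSD was lost without clone 3 replicate 1 (0.26) or replicate 2 (0.34). With clone 3 replicate 3 left out, 1 member was lower.

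In the hypoxia and glycolysis list, 7 of 23 genes (30.4%) were higher and 0 lower, with a median of 0.14. The share called higher over all genes was 9.61%. LDHA, lactate dehydrogenase, was the most even of them, at 7.13 to 7.29 in clones 1 and 2 and at 6.60, 6.33 and 6.46 in clone 3 (difference 0.72, SE 0.08, adjusted p = 1.14e-05). ADM, the peptide adrenomedullin, was higher by 0.77 (SE 0.15, adjusted p = 0.00131). Others rested on fewer arrays. DDIT4, an inhibitor of mTOR, was higher by 1.20 (SE 0.31, adjusted p = 0.0105), with clone 3 at 8.82, 7.38 and 8.26. VEGFA was higher by 0.72 (SE 0.23, adjusted p = 0.0339). Without clone 3 replicate 2, the low array for both, the calls of DDIT4 (0.81) and VEGFA (0.52) were lost and 2 of the 23 genes were higher and 1 lower. The call of VEGFA was also lost without clone 1 replicate 1 (0.65), clone 2 replicate 1 (0.60) or clone 3 replicate 3 (0.76).

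Of 19 tested genes of the BCL2 family and death receptors, 4 were higher and 3 lower (36.8% called, against 21.0% over all genes). Besides PMAIP1, the cell death activators BMF (0.59, SE 0.09, adjusted p = 0.000229) and BIK (0.39) and the caspase inhibitor XIAP (0.53) were higher. BMF is on chromosome 15. BCL2L1, which encodes the survival protein BCL-XL, was lower by -0.54 (SE 0.10, adjusted p = 0.00131), with 7.41 to 7.92 against 8.15, 8.18 and 7.92. TRADD, an adaptor of the TNF receptor, was lower by -0.60 and CFLAR, an inhibitor of caspase 8, by -0.41. Of 16 p53 targets (18.8% called, against 21.0% over all genes), PMAIP1 and SESN1 (0.55) were higher and TIGAR (-0.78) was lower. In the fit without clone 3 replicate 3, 2 p53 targets were lower.

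Interferon-induced genes differed in both directions: 5 of 28 were higher and 2 lower, with a median of 0.08. The share called in the list was near the 21.0% over all genes. HERC5, the ligase that attaches the ubiquitin-like ISG15, was at 4.12 to 5.17 in clones 1 and 2 and at 3.71, 3.32 and 3.55 in clone 3. These clone 3 values lay around the 40th percentile of an array (3.59 to 3.62), so the probe set was dim in that clone. The difference was 1.00 (SE 0.17, adjusted p = 0.000473), with the parental level at 4.85 ± 0.14. IFITM3, a membrane protein that blocks virus entry, was higher by 0.99 (SE 0.16, adjusted p = 0.000302). GBP3 was higher by 0.98 (SE 0.26, adjusted p = 0.0118), and its call was lost without clone 3 replicate 2 (0.94). HERC6 and TRIM14 were higher by 0.74 and 0.50. MX2 went the other way by -1.67, at 3.97 to 4.94 in clones 1 and 2 and 6.59, 6.25 and 5.90 in clone 3, with the parental line at 4.70 ± 0.12 like clones 1 and 2 and clone 6 at 6.18 to 6.37 like clone 3. IRF1 was lower by -0.34. The lower count was 1 without clone 1 replicate 2 or 3, clone 2 replicate 3 or any array of clone 3.

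The promoters of HERC5 and IFITM3 are shown for the interferon-stimulated response element, whose core was searched as GAAA, any 2 bases and GAAA again, on either strand. Capitals mark the matches.
HERC5, chr4:88456869-88457168, strand +: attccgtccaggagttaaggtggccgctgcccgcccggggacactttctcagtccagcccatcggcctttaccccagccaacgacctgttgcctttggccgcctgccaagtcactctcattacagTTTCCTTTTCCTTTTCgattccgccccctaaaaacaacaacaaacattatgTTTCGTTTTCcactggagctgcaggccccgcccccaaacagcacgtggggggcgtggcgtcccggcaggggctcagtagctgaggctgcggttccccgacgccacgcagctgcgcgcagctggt
IFITM3, chr11:320811-321110, strand -: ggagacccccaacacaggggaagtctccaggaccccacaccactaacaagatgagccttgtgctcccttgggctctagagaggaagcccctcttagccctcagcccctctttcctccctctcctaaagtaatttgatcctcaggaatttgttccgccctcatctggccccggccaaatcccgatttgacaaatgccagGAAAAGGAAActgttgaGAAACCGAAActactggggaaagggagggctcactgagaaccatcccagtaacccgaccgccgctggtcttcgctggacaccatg

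HERC5 held 3 matches, which overlap in part, and IFITM3 held 2. Among 26 promoters of 22 genes of the list, 13 (50.0%) held the core, against 3.57% of all 35116 promoters. Of the 6 called genes with a promoter, 4 held it.

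In antigen presentation, 2 of 15 genes were higher and 1 lower, a share near the 21.0% called over all genes. B2M, the light chain of MHC class I molecules, was at 7.98 to 8.29 in clones 1 and 2 and at 7.03, 7.10 and 7.13 in clone 3, a difference of 1.05 (SE 0.10, adjusted p = 2.88e-06). A dimmer probe set of B2M differed by 0.62. The parental level of 7.54 ± 0.13 lay between the groups. B2M is on chromosome 15. The calls of CD47 (0.28) and ERAP1 (-0.40) were each lost without any of 5 arrays. For CD47 these were clone 1 replicate 3, clone 2 replicates 2 and 3 and clone 3 replicates 1 and 3 (0.24 to 0.27). For ERAP1 they were clone 1 replicate 1, clone 2 replicates 1 and 2 and clone 3 replicates 2 and 3 (-0.42 to -0.33).

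Among 29 epithelial adhesion and junction genes, 5 were higher and 7 lower (41.4% called, against 21.0% over all genes), with a median of 0.01. Apart from the CEACAM genes, DSG2, a cadherin of desmosomes, was higher by 0.86 (SE 0.13, adjusted p = 0.000189). The tight junction genes MARVELD3, MARVELD2 and CLDN4 were lower by -0.61, -0.54 and -0.47. The splicing regulators ESRP1 and ESRP2 were called in opposite directions (0.24 and -0.32). Without clone 3 replicate 2 or replicate 3, 4 were lower.

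Of 19 tested mesenchymal and matrix genes, 5 were higher and 2 lower (36.8% called, against 21.0% over all genes). AXL, a receptor tyrosine kinase, was at 6.10, 5.98 and 5.68 in clone 1, 6.59, 6.47 and 6.56 in clone 2 and 5.29, 5.13 and 5.16 in clone 3 (difference 1.04, SE 0.09, adjusted p = 1.12e-06). TIMP1, an inhibitor of matrix proteases, was higher by 0.97 (SE 0.17, adjusted p = 0.000789). THBS1, thrombospondin 1, was lower by -1.39 (SE 0.12, adjusted p = 6.52e-07), at 6.18 to 6.56 against 7.91, 7.92 and 7.45. VIM, vimentin, was lower by -0.54 (SE 0.12, adjusted p = 0.00379), and its dimmer probe sets differed by -0.18 and -0.26. FBN1, which is on chromosome 15, FN1 and TWIST1 were higher by 0.39 to 0.46. The higher count was 3 without clone 3 replicate 2 or replicate 3.

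Of 25 tested secreted and mammary epithelial products, 8 were higher and 2 lower, where 21.0% of all genes were called. LRP2, megalin, an endocytic receptor, was higher by 1.23 (SE 0.14, adjusted p = 1.74e-05), S100A14 by 1.00 (SE 0.14, adjusted p = 8.78e-05) and LTF, lactoferrin, by 0.99. KLK11 and KLK6, secreted proteases, were higher by 0.70 and 0.55. CLCA2 was lower by -1.36 (SE 0.17, adjusted p = 2.77e-05), although clones 1 and 2 (8.93 ± 0.35) as well as clone 3 (10.30 ± 0.28) were above the parental line (7.51 ± 0.14). SLPI, a protease inhibitor, was lower by -1.06 (SE 0.12, adjusted p = 1.9e-05).

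Receptors and ligands of other pathways were called in both directions. Of 27 G protein-coupled receptors for peptides and lipids, 3 were higher and 3 lower (22.2% called, near the 21.0% over all genes). The higher ones were NTSR1 and the bradykinin receptors BDKRB1 (0.73) and BDKRB2 (0.46). The lower ones were LPAR3 for lysophosphatidic acid (-1.23, SE 0.14, adjusted p = 1.04e-05), PTGER4 for prostaglandin E2 (-1.12, SE 0.21, adjusted p = 0.00118) and GPR37 (-0.47). The higher count was 6 without clone 2 replicate 3. In the NF-kB and chemokine list, 1 of 22 was higher and 3 lower (18.2% called, against 21.0% over all genes). Among the lower ones were the chemokines CX3CL1 (-0.84, SE 0.13, adjusted p = 0.00025) and CXCL16 (-0.80, SE 0.15, adjusted p = 0.000833). TRAF3 was higher by 0.57 and RELA lower by -0.34. The call of RELA was lost without clone 3 replicate 1 (-0.32) or replicate 2 (-0.34), and the higher count was 2 without clone 1 replicate 3 or clone 2 replicate 3.

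In the Notch list, 6 of 32 were higher and 4 lower (31.2% called, against 21.0% over all genes). The ligands JAG1 (0.82, SE 0.15, adjusted p = 0.00111) and DLL1 (0.79, SE 0.11, adjusted p = 9.19e-05) were both higher, and so was ADAM10, the protease that cuts the receptor, by 0.92 (SE 0.10, adjusted p = 5.73e-06). ADAM10 is on chromosome 15. HEY2, a target gene, was lower by -0.47, a call lost without clone 3 replicate 2 (-0.43). The other higher members were MAML3 (0.42), NUMBL (0.40) and NRARP (0.38). The other lower members were MAML1 (-0.45), DTX4 (-0.34) and POFUT1 (-0.29). With clone 3 replicate 1 or 2 left out, 2 were lower.

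Of 35 Wnt genes, 3 were higher and 5 lower (22.9% called, near the 21.0% over all genes). DKK1, a secreted inhibitor, was lower by -1.16 (SE 0.18, adjusted p = 0.000259), at 5.90 to 6.73 against 7.43, 7.49 and 7.36. RNF43, which removes Wnt receptors from the surface, was lower by -0.58 (SE 0.12, adjusted p = 0.00234). LGR4, a receptor for R-spondins, was higher by 0.69 (SE 0.09, adjusted p = 6e-05) and LEF1, a nuclear effector, by 0.68 (SE 0.17, adjusted p = 0.00952). In the fit without clone 3 replicate 2, 3 Wnt genes were lower. In the TGF-beta and BMP list, 3 of 25 were higher and 3 lower, again near the 21.0% called over all genes. SMAD6 (0.76) and SMAD3 (0.44), both on chromosome 15, and SKIL (0.72) were higher, and SMAD5 (-0.53), SMAD4 (-0.32) and BMP7 (-0.32) lower.

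Among 24 genes of the amino acid and endoplasmic reticulum stress response, 4 were higher and 3 lower (29.2% called, against 21.0% over all genes). ASS1, DDIT4, VLDLR and XBP1 were higher and ATF5, PSPH and SEL1L lower. Without clone 3 replicate 2 or 3 the higher count was 2, and without any 1 array of clone 3 the lower count was 1. Glutathione and NRF2 genes gave 3 higher and 5 lower of 27 (29.6% called, against 21.0% over all genes). Among the lower ones were GSS, glutathione synthetase (-0.70, SE 0.10, adjusted p = 0.000162), and GSTK1 (-0.51, SE 0.11, adjusted p = 0.00277). Those counts ranged from 0 to 5 higher and 2 to 5 lower as single arrays were left out. They were 5 higher without clone 2 replicate 3 and 0 without clone 3 replicate 3, and 2 lower without clone 3 replicate 2 and 3 without clone 2 replicate 3 or clone 3 replicate 3.

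Genes that bind or handle microtubules, the target of the released poison, had 7 of 36 members higher and 2 lower, all by 0.44 or less in size. Over all genes 21.0% were called, and the share in the list was near it. CKAP5, which adds tubulin to microtubule ends, was higher by 0.39 (SE 0.08, adjusted p = 0.0017), KATNA1, a severing enzyme, by 0.44 and TBCE, a tubulin-folding cofactor, by 0.41. HDAC6, a tubulin deacetylase, was lower by -0.39, and its call was lost without clone 3 replicate 1 (-0.27). The higher count was 4 without clone 1 replicate 2 or any array of clone 3, and the lower count was 1 without clone 1 replicate 2 or 3, clone 2 replicate 2 or clone 3 replicate 1 or 3. The tubulin genes themselves were not analysed here.

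Cytosolic ribosomal protein genes had the smallest share of calls among lists of 20 or more genes, 4 of 46 higher and 1 lower (10.9%, against 21.0% of all genes). With clone 3 replicate 1 or 2 left out, the higher count was 1, and it was 2 without clone 1 replicate 1 or 3, clone 2 replicate 1 or clone 3 replicate 3. The lower count was 2 without clone 3 replicate 3. Of 15 oxidative phosphorylation genes, 2 were higher and 3 lower (33.3% called, against 21.0% over all genes). COX7B (0.60) and COX5A (0.44), the latter on chromosome 15, stood against COX5B (-0.90), COX4I1 (-0.31) and COX6A1 (-0.21). The lower count was 1 without any 1 array of clone 3, and the call of COX4I1 was lost without each of these (-0.31 to -0.29).

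**Figure D3:**
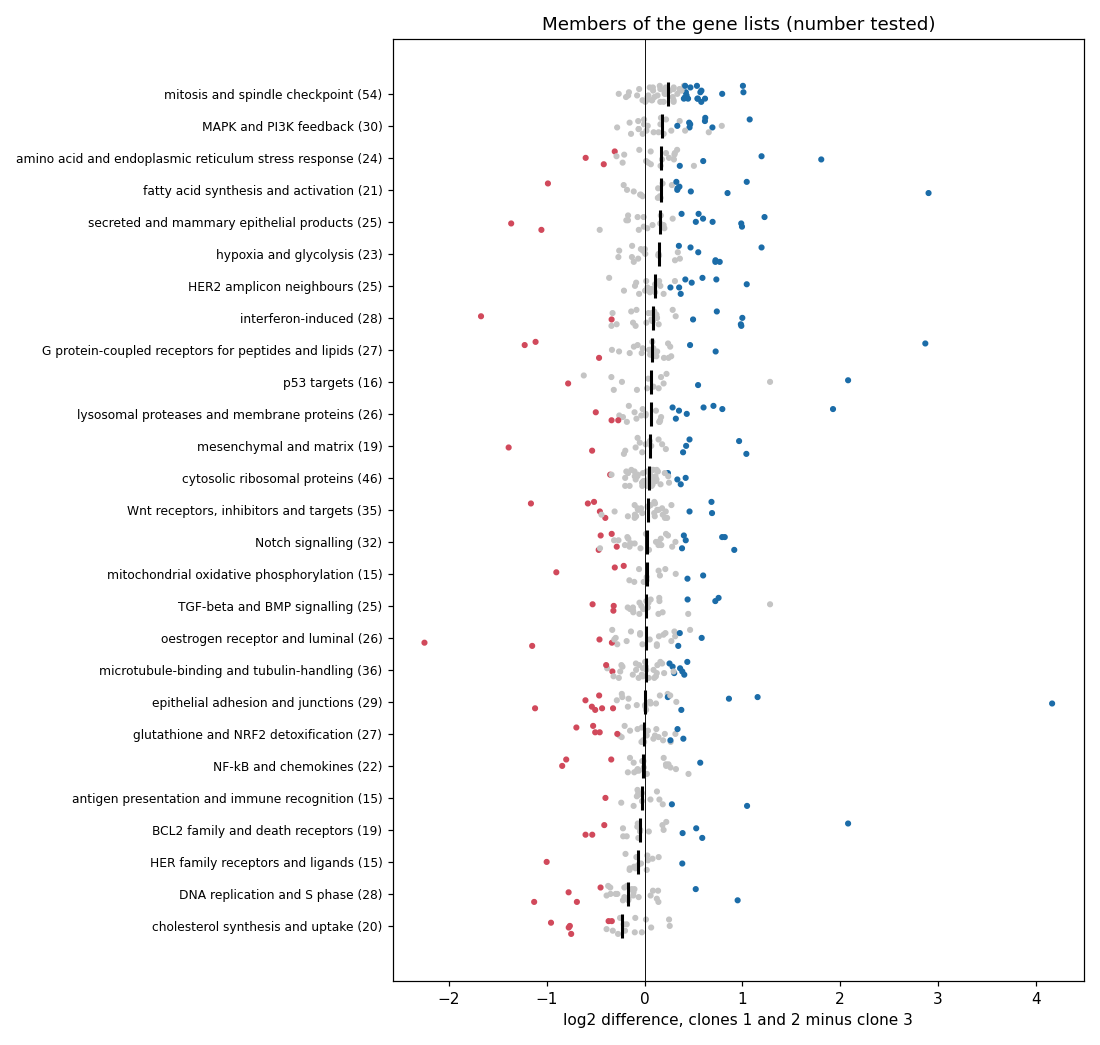
Difference of clones 1 and 2 from clone 3 (log2) for each tested member of 27 gene lists, ordered by list median; the number tested is in brackets. Blue points are called higher, red points called lower and grey points not called, and the black bar is the list's median, from 0.24 for mitosis to -0.23 for cholesterol synthesis.

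The called genes were unevenly spread over the chromosomes. On chromosome 15, 145 of 384 tested genes (37.8%) were higher in clones 1 and 2 and 19 lower, and the median difference was 0.22. Chromosome X (87 of 399 higher, 21.8%), chromosome 8 (81 of 430, 18.8%), chromosome 22 (57 of 306, 18.6%) and chromosome 6 (95 of 601, 15.8%) also had more higher than lower calls. On chromosome 22, 3 genes were lower. The reverse held on chromosome 16, with 159 of 568 lower (28.0%) and 14 higher, on chromosome 7, with 161 of 575 lower (28.0%) and 20 higher, and on chromosome 5, with 125 of 513 lower (24.4%) and 21 higher. These shares stand against 9.61% higher and 11.4% lower over all genes.

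**Figure D4:**
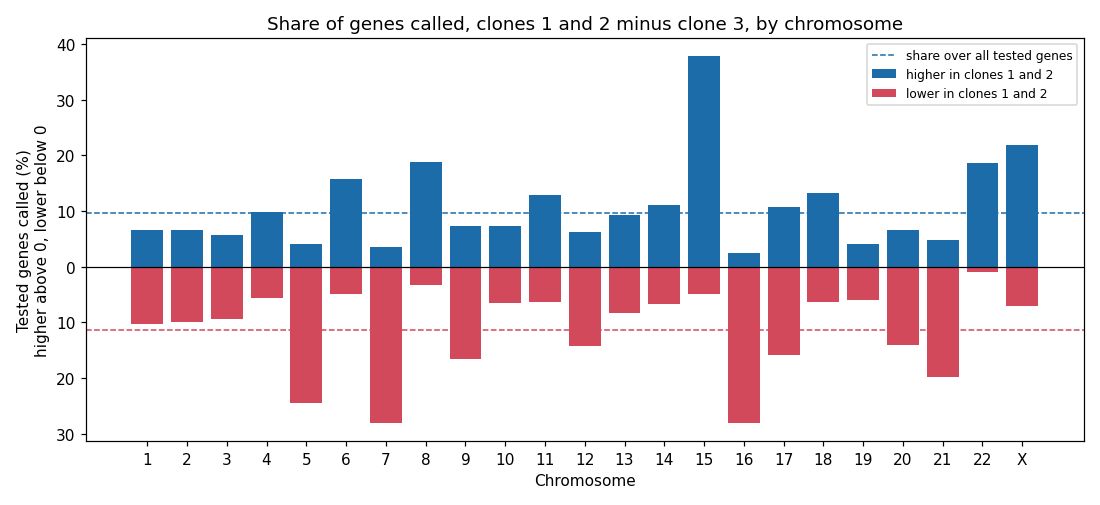
Share of tested genes called (%) on each chromosome, with genes higher in clones 1 and 2 drawn above 0 and lower ones below. Dashed lines are the shares over all tested genes (9.61% and 11.4%); chromosome 15 reaches 37.8% higher, and chromosomes 7 and 16 reach 28.0% lower.

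Along the chromosomes, calls of the same direction lay next to each other. Windows of 15 neighbouring tested genes with at least 9 calls in the same direction joined into 26 stretches on 10 chromosomes, 9 of them higher and 17 lower in clones 1 and 2. They hold 708 genes (5.83% of those tested) and 405 calls in their own direction (15.9% of all calls). Outside them 2138 of 11439 genes (18.7%) were called. The stretches were found from the calls and are given as a description.

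The longest stretches lay side by side on chromosome 15. From HERC2 to MAPDA, 48 of 80 genes were called higher, from TP53BP1 to BCL2L10 26 of 42, and from RSL24D1 to UACA 43 of 71, with median differences of 0.40, 0.43 and 0.49. The median was similar with clone 1 alone (0.38, 0.45 and 0.48) and with clone 2 alone (0.43, 0.38 and 0.48). Set against the parental line, clone 3 had medians of -0.34, -0.33 and -0.44 over these genes, and clones 1 and 2 had 0.01, 0.12 and 0.01. Clone 6 had -0.105, -0.059 and -0.135 there. DNA copy number was not measured.

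Members with the largest differences were DENND4A (1.29, SE 0.11, adjusted p = 8.8e-07), UBR1, a ligase of the N-degron pathway (1.12, SE 0.09, adjusted p = 6.52e-07), KNSTRN, a kinetochore-associated protein (1.08, SE 0.09, adjusted p = 6e-07), and ARHGAP11A (1.06, SE 0.11, adjusted p = 5.49e-06). SQOR, which oxidises sulfide in mitochondria, was higher by 1.04 and RSL24D1, a ribosome assembly factor, by 1.06. SCARNA14 was higher by 1.07, a call lost without clone 3 replicate 2 (1.00) or 3 (1.01). THBS1 went against its surroundings: it lies within the first stretch and was lower by -1.39.

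**Figure D5:**
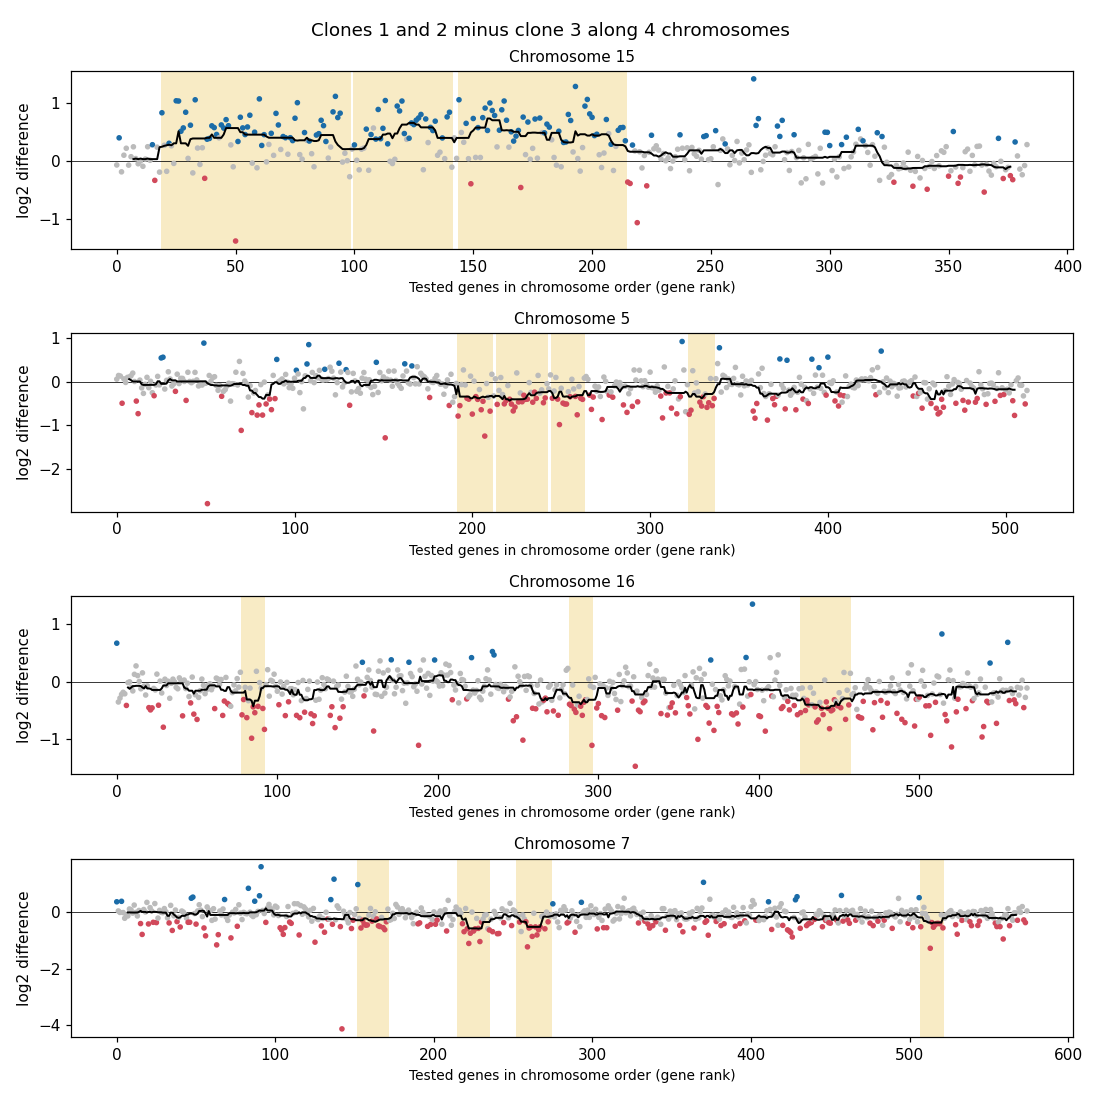
Difference of clones 1 and 2 from clone 3 (log2) for each tested gene in its order along chromosomes 15, 5, 16 and 7, with an axis of its own for each. Blue points are called higher, red lower and grey not called; the black line is the running median over 15 genes and shaded bands are the stretches, which lie above 0 on chromosome 15 (medians 0.40 to 0.49) and below 0 on the other 3.

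Chromosome 5 had the counterpart. From SLF1 to LINC01023, WDR36 to PRDM6 and PHAX to SOWAHA, 11 of 20, 17 of 29 and 11 of 19 genes were called lower in clones 1 and 2, with medians of -0.37, -0.37 and -0.34. Over the same genes clone 3 was above the parental line (medians 0.30, 0.34 and 0.29), and clones 1 and 2 were close to it (-0.08, 0.00 and 0.01). Clone 6 was at 0.24, -0.07 and 0.03. MACIR (-1.25, SE 0.10, adjusted p = 6.52e-07), ISOC1 (-0.98, SE 0.09, adjusted p = 1.37e-06) and RAD50, a DNA repair protein (-0.76, SE 0.11, adjusted p = 0.000159), had the largest differences with a firm call. SLF1 was lower by -0.79, a call lost without clone 3 replicate 2 (-0.81) or 3 (-0.66).

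Elsewhere the order against the parental line differed. On chromosome 7 from GLI3 to MYO1G, clones 1 and 2 were below the parental line (median -0.45) and clone 3 was nearer to it (-0.10). On chromosome 16 from ZNF768 to FBXL19-AS1, both were below it, clones 1 and 2 by a median of -0.57 and clone 3 by -0.22. On chromosome 6 from SCAF8 to MAP3K4, clones 1 and 2 were at the parental level (-0.02) and clone 3 below it (-0.36), whereas from PDE7B to STXBP5 clones 1 and 2 were above it (0.20) and clone 3 near it (-0.06). On chromosome X from MIR545 to TCEAL5, 20 of 36 genes were higher, with clone 3 at -0.43 against the parental line and clones 1 and 2 at 0.04. TSPAN6 (1.62, SE 0.13, adjusted p = 6.52e-07), TCEAL8 and CYSLTR1 are among them. On chromosome 11 from TCP11L1 to LDLRAD3, where 9 of 17 genes were higher, the hyaluronan receptor CD44 was higher by 1.35 (SE 0.21, adjusted p = 0.000203).

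Of 897 tested long non-coding RNA genes, 37 were higher and 93 lower (14.5% called), and of 505 tested miRNA genes 13 were higher and 19 lower (6.34%). Over all genes 21.0% were called. The arrays read total RNA with probes for the miRNA gene, so a value does not measure the mature miRNA. The miRNA genes called with no overlap between groups and a difference of at least 0.7 in size were picked after their values were seen. They were MIR4521 (-1.10, SE 0.25, adjusted p = 0.00425), MIR4453 (-0.71, SE 0.11, adjusted p = 0.000264), MIR579 (0.88, SE 0.23, adjusted p = 0.0105), MIR1204 (0.97) and MIR1206 (0.94). MIR4453 was at 6.63 to 6.97 in clones 1 and 2 and at 7.55, 7.68 and 7.22 in clone 3. The call of MIR4521 was lost in clone 2 alone, that of MIR579 without clone 3 replicate 3 (0.73), and that of MIR1204 without clone 3 replicate 1 (0.86) or 3 (0.87). A dimmer probe set of MIR4521 differed by -0.29.

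The RefSeq mature sequences of MIR4453, MIR579 and MIR4521 (GRCh38.p14) are given to identify them, 5′ to 3′, with the seed, bases 2 to 8, in capitals. The seeds are all different.
hsa-miR-4453, chr4:152536432-152536451, strand +: gAGCUUGGucuguagcgguu
hsa-miR-579-3p, chr5:32394392-32394414, strand -: uUCAUUUGguauaaaccgcgauu
hsa-miR-579-5p, chr5:32394430-32394451, strand -: uCGCGGUUugugccagaugacg
hsa-miR-4521, chr17:8186948-8186969, strand +: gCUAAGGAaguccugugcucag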

How the data were processed

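Total RNA was measured on 15 Affymetrix gene arrays, 3 per group. The authors deposited log2 values for 53617 probe sets per array. RMA, the Transcriptome Analysis Console and Affymetrix Expression Console 1.4.1 are named per the submitters' processing notes, without the step each did. RMA makes the intensity distributions of arrays alike, so a shift of most genes would be largely removed, and differences of dim probe sets are compressed. Gene symbols came from the platform annotation, updated through the RefSeq gene table (GRCh38.p14), which gave names and order only: 16098 probe sets (30%) had 1 symbol and 37519 had none here. For each symbol the probe set with the highest mean over the 15 arrays was used. It was tested when above the 40th percentile of its own array in at least 3 arrays, which left 12147 genes.

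With limma 3.58.1 in R 4.3.3, a linear model with a mean for each group used all 15 arrays (10 residual degrees of freedom). The contrast was the mean of clones 1 and 2 minus clone 3, with Benjamini-Hochberg adjustment over all genes. The number of arrays limits the precision. The steps were tested on simulated data. Members of the 27 lists were matched by symbol. The text names up to 15 higher and 15 lower genes with the largest called differences and no overlap of arrays, up to 4 called members per list, fixed genes, and the ends and up to 3 genes of each stretch. Other genes given are called list members, flanking genes and miRNA genes seen first in the data. The arrays compared and the lists were chosen with earlier results of these data known.

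The replicate numbers of the 3 clones were not taken as pairs, because the deviations of same-numbered arrays correlated from -0.12 to 0.46 and not all above 0.1. Between clones 1 and 2 these correlations were 0.46, 0.09 and 0.34 for replicates 1, 2 and 3. The reported fit takes the arrays as independent and does not model an effect shared by same-numbered arrays. Alternatives covered the filter on dim probe sets, scaling, the replicate block, the arrays in the fit, eBayes settings, array weights, the choice of probe set, single arrays left out, each pooled clone alone and a stricter threshold. Leaving out chromosome 15 from the lists was added after the data were seen. Python 3.11.15 with matplotlib 3.10.9 drew the figures.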

Additional observations from a re-analysis of the deposited data

Results flagged for a closer look

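The following genes were called against the parental line in opposite directions in clones 1 and 2 and in clone 3, and the difference between the clones, tested by limma's contrast itself, was called as well. The parental arrays enter both comparisons with the parental line. Above the parental line in clones 1 and 2 and below it in clone 3 were CEACAM5 (difference between the clones 4.17, from 2.86 and -1.31 against parental), NTSR1 (2.87, from 2.12 and -0.75), TCEAL8 (2.52, from 1.21 and -1.32), RASSF2 (2.40, from 1.03 and -1.36) and SGPP2 (2.19, from 1.15 and -1.04). So were PMAIP1 (2.08, from 0.68 and -1.40), BCL11A (2.07, from 1.46 and -0.60), TNS4 (1.73, from 0.94 and -0.79), B2M (1.05, from 0.60 and -0.45), AXL (1.04, from 0.66 and -0.38), ELOVL7 (0.85, from 0.42 and -0.43) and CTSZ (0.79, from 0.42 and -0.37).

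Below the parental line in clones 1 and 2 and above it in clone 3 were TARP (-4.13, from -1.46 and 2.67), NPR3 (-2.79, from -2.23 and 0.56), ERP27 (-2.54, from -1.51 and 1.03), VTCN1 (-1.75, from -0.90 and 0.85) and ZNF415 (-1.60, from -0.78 and 0.83). THBS1 (-1.39, from -0.95 and 0.44), ACSS2 (-0.99, from -0.54 and 0.45) and MVK (-0.75, from -0.42 and 0.33) followed them. Among these genes the adjusted p against the parental line reached 0.0473 for TNS4, 0.0457 for BCL11A and 0.045 for MVK in clone 3.

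Probe sets with no symbol here entered no comparison of genes. Of 21751 that passed the same filter, 1698 (7.81%) were called between clones 1 and 2 and clone 3 when tested among themselves with limma, 781 higher and 917 lower, and 249 of the calls were at least 2-fold.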

How the results depend on the processing

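The count of 2553 called genes ranged from 1871 (without clone 3 replicate 2) to 2532 (without clone 2 replicate 3) as each of the 9 arrays was left out, and from 1914 to 2736 over the other settings at the same threshold. The highest of these, 2736 with 1259 higher, came from the fit with the replicate block. Of the 9 arrays, 6 matched best to an array of their own replicate number. Pairing was not assumed in the reported fit. The fit with the replicate block allows for an effect shared by same-numbered arrays. It called 2505 of the 2553 genes in the same direction. The shared effect itself was not tested. At an adjusted p below 0.01 the counts were 1494 for the pooled contrast, 1073 for clone 1 and 1033 for clone 2 against clone 3. The share of higher calls was 43.9% to 50.6%, highest when arrays were centred on their medians, against 45.7% as reported. Between clones 1 and 2, 0 genes were called, and the count was 6 with renewed quantile normalization, 6 with the replicate block, 5 with trend and robust settings, 4 with array weights, 3 after centring, 2 with the mean of probe sets, 1 with the 9 arrays alone and 0 to 1 as single arrays were left out (1 without clone 2 replicate 2). The cause was not tested. Of 222 named genes called, 184 kept the call without any 1 array. CDC20, not called, turned to -0.02 with clone 1 alone. Genes dim in every group have differences limited by the arrays' background.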
